A study of Mus musculus with 6 samples.

Results

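Calcium handling was examined through 10 genes of the deposited table, which covers 24420 gene symbols. They encode the plasma membrane pumps (*Atp2b1*, *Atp2b4*), the pumps of the endoplasmic reticulum (*Atp2a2*, *Atp2a3*), the sensors of the calcium store (*Stim1*, *Stim2*), the entry channels (*Orai1*, *Orai2*) and the release channels (*Itpr1*, *Itpr2*). The genes were chosen by symbol and with the genotype differences of these same samples already known, so the genotype differences of the 10 genes are given as a description, with no test. The samples were Treg cells from lymph nodes of female C57BL/6 mice, obtained by CD4 bead enrichment and a sort for YFP. In 3 samples the genotype was Foxp3YFP-Cre/wt Ogtwt/fl, called WT in the labels and OGT-sufficient here. In the other 3 it was Foxp3YFP-Cre/wt Ogtfl/fl, called KO in the labels and OGT-deficient here. OGT is the enzyme that attaches O-GlcNAc to proteins. Cre, expressed from the *Foxp3* locus on the X chromosome, was carried by both groups, and each control mouse also carried a floxed *Ogt* allele. The labels do not say on which X chromosome that allele lies. Age is not in the labels, which also do not state that each sample is 1 mouse, so p-values measure the spread between these samples. The paper states a general age range for mice other than its knockout males and their controls, without naming these samples.

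In a resting T cell most free calcium is held in the endoplasmic reticulum, where the SERCA pumps encoded by *Atp2a2* and *Atp2a3* put it. Signals from the T cell receptor produce inositol trisphosphate, which opens the receptors encoded by *Itpr1* and *Itpr2*, and STIM proteins that sense the emptied store then open ORAI channels in the plasma membrane. The plasma membrane pumps PMCA1 (*Atp2b1*) and PMCA4 (*Atp2b4*) export calcium again. Calcium that stays high activates calcineurin and NFAT transcription factors.

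The total count was between 3375454 and 4103552 per sample, and all 10 genes passed the low-count filter that left 10949 genes. The ribosomal RNA entry *Rn45s* made up 24.2% of the total in OGT-sufficient replicate 3, its lowest share, and up to 37.1% elsewhere. Without it, 2488303 to 2686873 counts remained per sample. OGT-sufficient replicate 3 stood apart, with 18346 genes above 0 while the remaining 5 samples had 14412 to 15197, and it had the lowest summed Treg markers (10 genes, 2560 CPM against 3370 to 3830 CPM). *Ogt* had 562, 632 and 957 counts in OGT-sufficient and 327, 266 and 368 in OGT-deficient replicates 1 to 3 (log2 fold change -1.21 ± 0.21 SE, adjusted p = 0.191 in edgeR's quasi-likelihood test), without overlap. *Foxp3*, which defines the cells, had between 719 and 1116 counts in all 6 samples. It shares exon positions with 2 other genes of the table. CPM are read counts scaled to a common library size by TMM. Markers of other cells were present. The summed level of 12 macrophage markers was 1980 to 4190 CPM in OGT-sufficient and 1440 to 6040 CPM in OGT-deficient samples. That of 8 B-cell markers was 93.2 to 336 CPM in OGT-sufficient samples, highest in replicate 3, and 87.8 to 154 CPM in OGT-deficient samples. The 10 erythroid markers summed to 359 to 1190 CPM, again highest in replicate 3, and 358 to 677 CPM, with *Hba-a1* at 0 in every sample. The 10 CD8 and NK markers summed to 40.1 to 51.9 and 24.6 to 43.3 CPM, with *Klra1* at 0. In OGT-sufficient replicate 1 the macrophage sum was above the Treg sum (4190 against 3450 CPM). So it was in OGT-deficient replicates 2 (5150 against 3500 CPM) and 3 (6040 against 3370 CPM), and it was below in the other samples. Each level given here is therefore that of a whole sorted sample, with any such cells in it. Since RNA was measured in bulk, fewer cells of a type and less RNA per cell cannot be told apart. Levels are mean ± SD over n = 3 samples per group. Log2 fold changes are OGT-deficient minus OGT-sufficient, ± their standard error (SE).

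*Atp2b4* was the gene of the 10 that differed most between genotypes, at 2.00-fold lower in OGT-deficient Treg cells. It lies on the minus strand of chromosome 1 (133699457 to 133801041, GRCm38, the same assembly as mm10) and encodes PMCA4, a pump regulated by calmodulin. OGT-sufficient replicates 1, 2 and 3 had 305, 312 and 367 counts, and OGT-deficient replicates 1, 2 and 3 had 126, 203 and 181. All OGT-deficient samples lay below all OGT-sufficient samples. The level was 87.4 ± 8.09 CPM in OGT-sufficient and 43.8 ± 9.95 CPM in OGT-deficient Treg cells, a log2 fold change of -0.997 ± 0.177 (SE). Over 14 other settings, which changed the test, the scaling, the filter or the samples used, the log2 fold change lay between -1.10 and -0.82, and the value nearest to 0 was that without OGT-deficient replicate 1. A microRNA gene, *Mir6903*, overlaps an exon of *Atp2b4* and had no count in any sample.

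Some markers of effector Treg cells also differed between the groups, but not all in 1 direction. Of 9 such markers tested, 6 were lower and 1 was higher in OGT-deficient cells at an unadjusted p under 0.05 (edgeR's quasi-likelihood test). Over all genes tested, 4.01% were lower and 3.09% higher at that p. *Klrg1*, *Ccr2*, *S100a4* and *Gzmb* were picked for this difference by the study on these samples. *Irf4* went up, with 361, 393 and 329 counts in OGT-sufficient and 541, 516 and 623 in OGT-deficient replicates 1 to 3. The summed level of the 10 listed was 296 to 384 CPM in OGT-sufficient and 281 to 335 CPM in OGT-deficient samples, which overlapped. That sum includes *Irf4*, which had the most counts of the 10 in each OGT-deficient sample. It therefore mixes both directions and does not show whether the lower markers as a set separated the groups. Of 8 B-cell markers tested, 2 were lower and 0 higher at that p, and their sum was highest, at 336 CPM, in OGT-sufficient replicate 3, where *Atp2b4* was highest too. The macrophage markers had their lowest sum, 1440 CPM, in OGT-deficient replicate 1, where *Atp2b4* was lowest, and 1980 CPM in OGT-sufficient replicate 3. The part of these cells in the level of *Atp2b4* was not tested.

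*Atp2b1*, which encodes the widely expressed pump PMCA1, overlapped between the groups. It lies on the plus strand of chromosome 10 (98914406 to 99026143). The counts were 998, 954 and 873 in OGT-sufficient and 755, 965 and 905 in OGT-deficient replicates 1 to 3. OGT-deficient replicate 1 was the lowest sample, as for *Atp2b4*. The mean was 251 ± 19.1 and 225 ± 26.7 CPM, a log2 fold change of -0.16 ± 0.13 (SE). It was -0.06 without OGT-deficient replicate 1 and -0.07 without OGT-sufficient replicate 1.

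**Figure D1:**
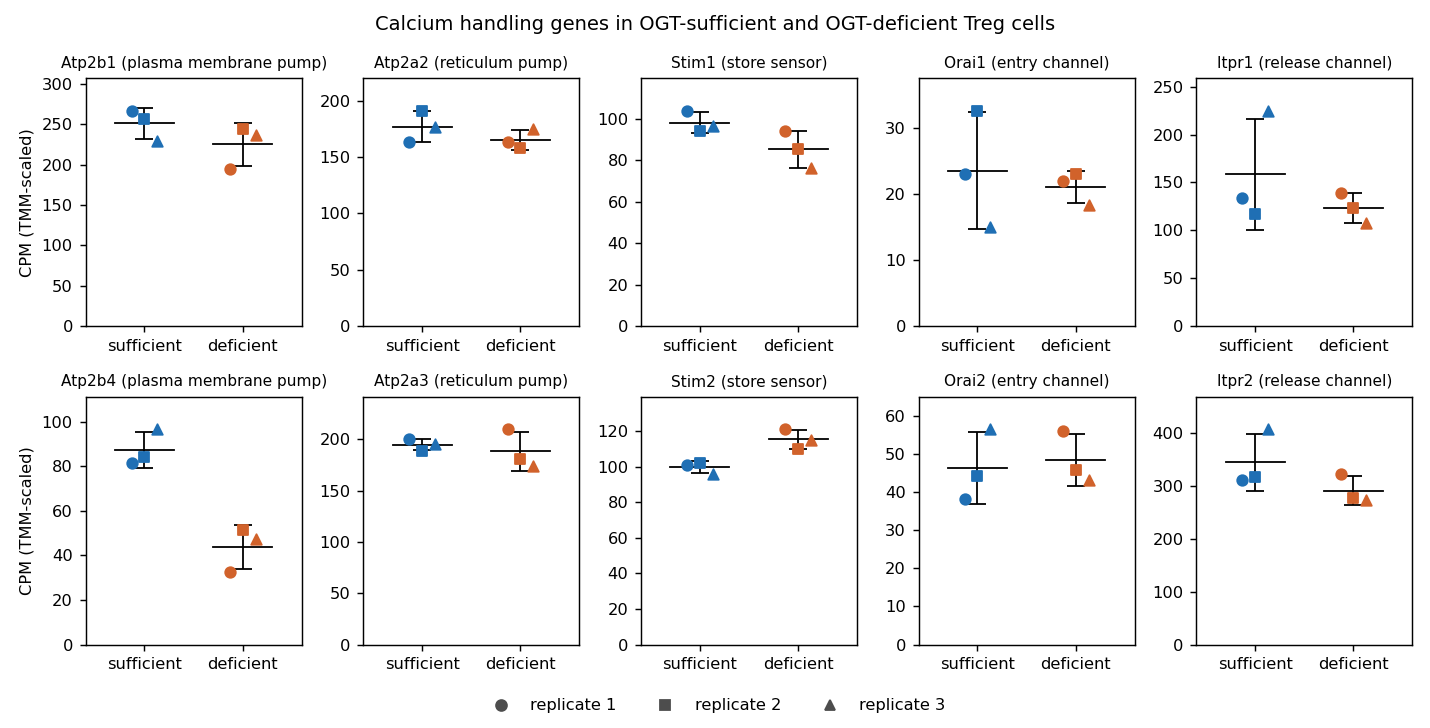
Level of each of the 10 genes (y axis, CPM relative to the TMM-scaled library, starting at 0) in OGT-sufficient (blue) and OGT-deficient (orange) Treg cells. Symbols are single samples by replicate number, horizontal lines are means and bars are ± SD (n = 3 per group). The groups do not overlap in *Atp2b4*, which is lower in OGT-deficient cells, and in *Stim2*, which is slightly higher.

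The ratio of both plasma membrane pumps within a sample does not depend on library scaling. Per exon length, *Atp2b1* was 2.63, 2.46 and 1.91 times the level of *Atp2b4* in OGT-sufficient replicates 1, 2 and 3. In OGT-deficient replicates 1, 2 and 3 it was 4.82, 3.83 and 4.02 times that level. The mean log2 ratio was 1.21 ± 0.24 and 2.07 ± 0.18 (SD, n = 3 each), a difference of 0.86, without overlap. *Atp2b4* thus made up 30.2% ± 3.59 of the plasma membrane pump RNA in OGT-sufficient cells and 19.3% ± 1.86 in OGT-deficient cells. These shares depend on the lengths used and were 17.5% and 10.5% with the longest transcript in place of the union of exons, while the difference of the log2 ratio does not. The level of both genes together was 23.6 ± 0.601 and 18.4 ± 2.57 RPKM (CPM per kilobase of exon), and the groups did not overlap.

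The promoter windows of *Atp2b4* and *Atp2b1* are shown because the ratio of these paralogs separated the groups, and the windows differ in base composition. They come from RefSeq (GRCm38.p6), run 5′ to 3′ from 250 bases before to 50 bases after a start site, and have the CG dinucleotides in capitals. The *Atp2b4* window is chr1:133753698-133753997 on the minus strand, inside the span of the gene in GENCODE M21, so other start sites exist. The *Atp2b1* window is chr10:98914392-98914691 on the plus strand, the first of 2 listed.
Atp2b4: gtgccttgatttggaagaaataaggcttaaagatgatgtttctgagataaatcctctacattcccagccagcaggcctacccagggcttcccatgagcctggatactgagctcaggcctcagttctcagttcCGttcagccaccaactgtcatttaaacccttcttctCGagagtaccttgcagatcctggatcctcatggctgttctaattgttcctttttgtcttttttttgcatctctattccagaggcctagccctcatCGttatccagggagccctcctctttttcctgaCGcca
Atp2b1: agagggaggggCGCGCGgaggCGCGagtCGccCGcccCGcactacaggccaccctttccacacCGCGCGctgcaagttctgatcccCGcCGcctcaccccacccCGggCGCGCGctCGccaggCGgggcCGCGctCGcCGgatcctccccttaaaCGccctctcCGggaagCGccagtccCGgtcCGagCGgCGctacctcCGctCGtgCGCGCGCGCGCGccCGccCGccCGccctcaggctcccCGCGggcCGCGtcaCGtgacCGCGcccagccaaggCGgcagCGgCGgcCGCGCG

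The *Atp2b4* window holds 4 CG dinucleotides in 300 bases, more than 31.4% of the 32851 windows in the table, whose median is 7. The *Atp2b1* window holds 54, more than 99.7% of them. The other windows hold between 24 in *Orai2* and 45 in the second window of *Atp2b1*, so this *Atp2b4* window is the only 1 of the 9 below the median. No window at the 5′ end of the *Atp2b4* span was examined, and which start site these cells use was not tested. *Atp2a2* and *Itpr1* were not matched. The motif TTCNNNGAA, bound by STAT5 and reading alike on both strands, occurs in 1 of the 9 windows, that of *Orai1*, against 8.30% of all windows. A match is a description of letters and was not tested for binding.

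The pumps that fill the store differed little between genotypes, and their samples overlapped. *Atp2a2* (chromosome 5, 122453513 to 122502225, minus strand) encodes SERCA2, the pump found in most tissues. It had 610, 708 and 671 counts in OGT-sufficient and 631, 624 and 666 in OGT-deficient replicates 1 to 3. Its level was 177 ± 13.9 and 165 ± 8.56 CPM, a log2 fold change of -0.10 ± 0.11 (SE), or -0.003 without OGT-sufficient replicate 2. *Atp2a3* (chromosome 11, 72961169 to 72993044, plus strand) encodes SERCA3, which is typical of blood cells. It had 749, 700 and 743 counts in OGT-sufficient and 813, 715 and 663 in OGT-deficient replicates 1 to 3. Its level was 195 ± 5.83 and 188 ± 19.1 CPM, a log2 fold change of -0.05 ± 0.11 (SE). The sign of this small value changed in 4 of the 14 settings. Within each sample *Atp2a3* was between 1.14 and 1.48 times *Atp2a2* per exon length, and *Atp2a2* took 44.1% ± 2.67 of the sum in OGT-sufficient and 43.3% ± 3.17 in OGT-deficient cells.

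Among the store sensors, the groups were apart for *Stim2*, at a slightly higher level in OGT-deficient cells, and overlapped for *Stim1*. STIM1 is the main activator of ORAI channels once the store is emptied, while STIM2 responds to smaller losses of store calcium. *Stim2* (chromosome 5, 53998499 to 54121057, plus strand) had 377, 377 and 364 counts in OGT-sufficient and 468, 434 and 440 in OGT-deficient replicates 1 to 3. Every OGT-deficient sample was above every OGT-sufficient sample, at 115 ± 5.46 against 99.4 ± 3.10 CPM, a log2 fold change of 0.21 ± 0.10 (SE). With library size only in place of TMM scaling the groups overlapped, and over all settings the log2 fold change lay between 0.17 and 0.28. Library size includes *Rn45s*, at 24.2% of the total in OGT-sufficient replicate 3 and 30.6% to 37.1% in the other samples. The part of *Rn45s* in that overlap was not tested. *Stim2* had the lowest spread within groups of the 10, with a pooled SD of 0.058 on the log2 scale, in the lowest 1.4% of all genes tested. This spread comes from n = 3 samples per group and is not read as a trait of the gene.

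*Stim1* (chromosome 7, 102267806 to 102437319, plus strand) had 390, 350 and 366 counts in OGT-sufficient and 366, 337 and 291 in OGT-deficient replicates 1 to 3. Its level was 98.3 ± 5.24 and 85.3 ± 9.08 CPM, a log2 fold change of -0.20 ± 0.12 (SE), and the groups overlapped. Without OGT-deficient replicate 3, the lowest sample, it was -0.096, and without OGT-sufficient replicate 1 it was -0.12. Within a sample *Stim1* was 0.512, 0.459 and 0.498 times *Stim2* per exon length in OGT-sufficient replicates 1 to 3 and 0.387, 0.384 and 0.327 times in OGT-deficient replicates 1 to 3. The groups did not overlap, and the mean log2 ratio differed by -0.42. The summed level of both sensors was 28.8 ± 0.858 and 30.7 ± 1.68 RPKM, with overlap. Which of them is higher per length depends on the length used. *Stim2* took 67.1% of the sum in OGT-sufficient cells by the union of exons and 47.2% by the longest transcript, against 73.2% and 54.5% in OGT-deficient cells.

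**Figure D2:**
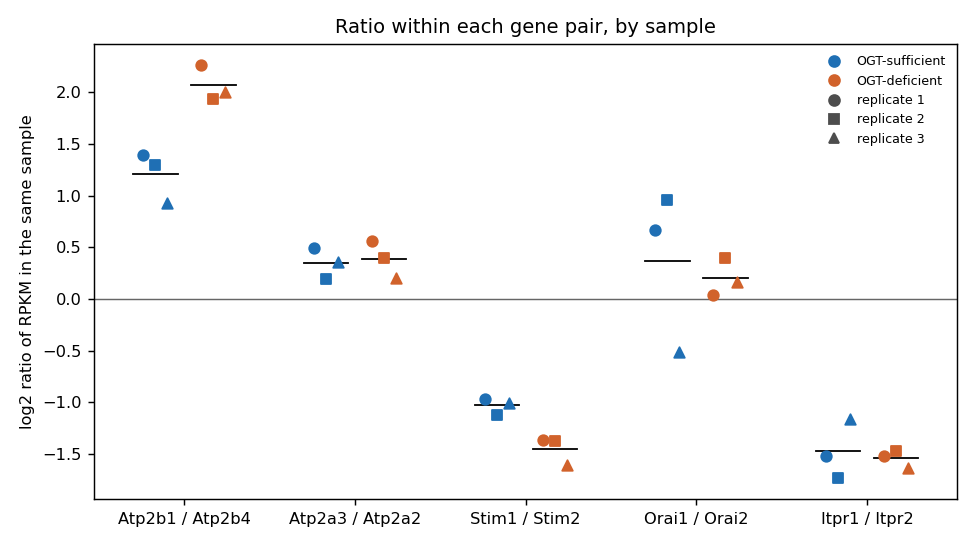
Log2 ratio of RPKM within each pair of related genes (y axis), 1 symbol per sample, with OGT-sufficient samples in blue and OGT-deficient samples in orange, and group means as lines. The groups separate for *Atp2b1* over *Atp2b4* (means 1.21 and 2.07) and for *Stim1* over *Stim2* (means -1.03 and -1.45), and overlap for the other 3 pairs. *Atp2b4* and *Stim2* are also the genes whose own levels did not overlap, so these ratios are not separate results.

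Of the entry channels, *Orai1* had the fewest counts of the 10 genes in every sample and the widest spread within groups, a pooled SD of 0.405 on the log2 scale. *Orai1* (chromosome 5, 123015074 to 123030456, plus strand) encodes the pore of the main store-operated channel of T cells. It had 86, 121 and 57 counts in OGT-sufficient and 85, 91 and 70 in OGT-deficient replicates 1 to 3. The OGT-sufficient samples were both the highest and the lowest, at 23.5 ± 8.81 CPM against 21.1 ± 2.45 CPM, a log2 fold change of -0.16 ± 0.27 (SE). It was -0.39 without OGT-sufficient replicate 3 and 0.19 without OGT-sufficient replicate 2, so no direction could be given. Antisense gene *Gm2479* shares exon positions with *Orai1*, and whether strand was used in counting is not given in the sources used here. The same limit holds for *Itpr1* (*Gm44101* and *Gm44040*) and *Atp2a2* (*Gm43361*), whose exons are also shared by genes on the opposite strand.

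*Orai2* (chromosome 5, 136147459 to 136170713, minus strand) encodes a related subunit that can join ORAI1 in the channel. It had 143, 165 and 215 counts in OGT-sufficient and 218, 182 and 165 in OGT-deficient replicates 1 to 3. Its level was 46.4 ± 9.35 and 48.5 ± 6.84 CPM, a log2 fold change of 0.06 ± 0.18 (SE), with overlap. It was 0.24 without OGT-sufficient replicate 3 and below 0 without replicate 1 of either group. In CPM, OGT-sufficient replicate 3 was the highest sample for *Orai2* (56.6) and the lowest for *Orai1* (15.0). The ratio of *Orai1* to *Orai2* per exon length was therefore 0.702 there, against 1.03 to 1.94 in the other 5 samples.

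The release channels were lower on average in OGT-deficient cells, but OGT-sufficient replicate 3 carried much of that difference. *Itpr1* (chromosome 6, 108213096 to 108551109, plus strand) had 502, 435 and 854 counts in OGT-sufficient and 539, 487 and 413 in OGT-deficient replicates 1 to 3. Its level was 159 ± 57.9 and 124 ± 15.4 CPM, a log2 fold change of -0.36 ± 0.23 (SE), which became -0.02 without OGT-sufficient replicate 3. *Itpr2* (chromosome 6, 146108299 to 146502223, minus strand) had 1165, 1173 and 1546 counts in OGT-sufficient and 1252, 1093 and 1040 in OGT-deficient replicates 1 to 3. Its level was 345 ± 54.0 and 291 ± 28.0 CPM, a log2 fold change of -0.25 ± 0.14 (SE), which became -0.10 without that replicate. Replicate 3 of the OGT-sufficient group also had the highest summed B-cell markers, at 336 CPM against 87.8 to 165 CPM in the other 5 samples, the highest erythroid sum, at 1190 CPM against 358 to 677 CPM, and the lowest Treg sum. The part of these cells in the *Itpr1* and *Itpr2* levels was not tested. *Itpr2* was the higher of both genes in every sample, with 69.1% to 76.9% of their sum per exon length.

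**Figure D3:**
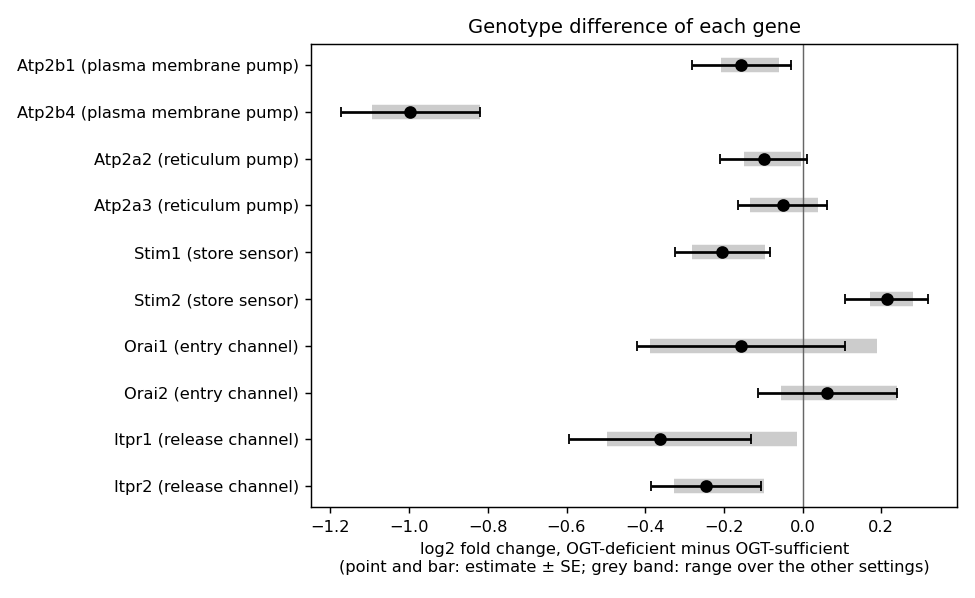
Log2 fold change of each gene, OGT-deficient minus OGT-sufficient (x axis), as estimate ± standard error (black), with the range over 14 other settings as a grey band. *Atp2b4* lies at -0.997 with a band from -1.10 to -0.82, and the other 9 estimates lie between -0.36 and 0.21.

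Over the 10 genes the median log2 fold change was -0.16, against -0.02 over all 10949 genes tested, and 8 of the 10 values were negative, as were 5774 of all 10949. With 1 sample left out, the median over the 10 ran from -0.174 (without OGT-deficient replicate 2) to -0.069 (without OGT-sufficient replicate 2). It was -0.095 without OGT-sufficient replicate 3. The median over all genes tested lay between -0.016 and 0.026 in these runs. The groups did not overlap in 1 gene lower and 1 gene higher in OGT-deficient cells, where 7.48% and 5.72% of all genes tested did so. As the genes were chosen with this contrast known, nothing is read from these counts. Of the 10 genes, 9 had a longer union of exons than the median gene tested, at a median of 8226 against 4577 bases (n = 10 and 10900). After correcting for GC and length, the median over the 10 was -0.091, and that over all genes tested was 0.014. The log2 fold change of *Atp2b4* was then -0.93 ± 0.16 (SE), that of *Atp2b1* -0.078, *Stim1* -0.104, *Itpr1* -0.207 and *Itpr2* -0.135.

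The levels of the 10 genes among themselves did not enter the choice. Over all 6 samples and per kilobase of exon, *Atp2a3* was highest, at 36.3 RPKM (32.9 to 39.7). *Atp2a2* followed at 28.1 RPKM (25.96 to 31.4), *Itpr2* at 21.5 (18.4 to 27.5), *Stim2* at 20.9 (18.7 to 23.5) and *Atp2b1* at 15.7 (12.8 to 17.5). *Orai1* was at 9.72 RPKM (6.54 to 14.2), *Stim1* at 8.85 (7.35 to 10.05), *Orai2* at 7.81 (6.29 to 9.31), *Itpr1* at 7.70 (5.91 to 12.3) and *Atp2b4* at 5.35 (2.65 to 7.89). *Atp2a3* exceeded *Atp2a2* in 6 of 6 samples, and *Stim2* exceeded *Atp2b1* in 6 of 6. *Itpr2* and *Stim2* could not be ordered, since each was higher in 3 of 6 samples, and *Orai1*, *Stim1*, *Orai2* and *Itpr1* kept their neighbour order in only 4 of 6 samples. The last place of *Atp2b4* is of the mean over both genotypes, which was 7.14 ± 0.661 RPKM in OGT-sufficient and 3.57 ± 0.812 RPKM in OGT-deficient cells. It was below *Itpr1* in 5 of 6 samples, their ranges overlapped, and in OGT-sufficient replicate 1 it exceeded *Orai2* (6.65 against 6.29 RPKM). With the longest transcript as length, the mean over all samples kept *Atp2a3* first and *Atp2b4* last, while *Atp2b1* went from rank 5 to rank 2. Among all genes tested with a length, these levels ran from the 47.5th percentile for *Atp2b4* to the 92.8th for *Atp2a3*.

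Other genes of calcium signalling were taken from a list of 112, of which 91 were tested. At an unadjusted p under 0.05 by edgeR's quasi-likelihood test, 6 were lower and 2 higher in OGT-deficient cells, and 0 passed an FDR of 0.1 in any setting. Of all genes tested, 7.10% had an unadjusted p under 0.05 (4.01% lower and 3.09% higher, 439 and 338 genes, or 434 and 210 with library size only), and 0.0274% passed the FDR. The median log2 fold change of the list was 0.01, against -0.02 over all genes tested. The groups did not overlap in 13 lower and 6 higher of the 91, and in 7.48% and 5.72% of all genes tested.

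Among other calcium channels, 3 of 21 tested were lower and 0 higher. *Ryr2*, a ryanodine receptor that releases store calcium, had 208, 233 and 258 counts in OGT-sufficient and 174, 156 and 184 in OGT-deficient replicates 1 to 3. Its log2 fold change was -0.49 ± 0.14 (SE, edgeR adjusted p = 0.463), and it had an unadjusted p under 0.05 in 14 of 14 settings. *Itpr3*, the third inositol trisphosphate receptor, had 512, 577 and 890 against 530, 482 and 496 counts, with OGT-sufficient replicate 3 highest, as for *Itpr1* and *Itpr2*. Its log2 fold change was -0.44 ± 0.19 (SE, edgeR adjusted p = 0.686) and -0.16 without that replicate, and its unadjusted p was under 0.05 in 4 of 14 settings. It shares exon positions with the antisense gene *Itpr3os*. *Trpm4*, a cation channel that calcium opens, had 22, 23 and 24 against 17, 15 and 7 counts (log2 fold change -0.87 ± 0.35 SE, edgeR adjusted p = 0.669), and kept an unadjusted p under 0.05 in 5 of 13 settings. Without OGT-deficient replicate 3 its log2 fold change was -0.55.

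Of 21 tested regulators of pumps and store entry, 1 was lower and 0 were higher. It was *Cracr2a*, which encodes a calcium-binding regulator of ORAI1 and STIM1, with 34, 57 and 62 counts in OGT-sufficient and 33, 31 and 32 in OGT-deficient replicates 1 to 3 (log2 fold change -0.72 ± 0.26 SE, edgeR adjusted p = 0.592). Of 9 genes of inositol trisphosphate turnover, 1 was lower, the phospholipase gene *Plcb4*, with 64, 54 and 69 against 39, 48 and 43 counts (log2 fold change -0.57 ± 0.19 SE, edgeR adjusted p = 0.565). Among 24 genes of calmodulin, calcineurin and NFAT, 1 was lower and 1 higher. *Ppp3cb*, a catalytic subunit of calcineurin, had 290, 267 and 300 against 235, 231 and 237 counts, a log2 fold change of -0.33 ± 0.11 (SE, edgeR adjusted p = 0.565). *Rcan3*, which encodes a regulator of calcineurin, had 203, 229 and 161 against 258, 280 and 281 counts, a log2 fold change of 0.42 ± 0.15 (SE, edgeR adjusted p = 0.610). Of 14 settings, an unadjusted p under 0.05 was reached in 10 for *Cracr2a*, 11 for *Plcb4*, 10 for *Ppp3cb* and 12 for *Rcan3*.

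Of 11 genes of mitochondrial calcium uptake, 0 were lower and 1 was higher. It was *Mcub*, listed as *Ccdc109b*, which encodes the subunit that restrains the mitochondrial uniporter. It had 69, 64 and 41 counts in OGT-sufficient and 95, 103 and 96 in OGT-deficient replicates 1 to 3. Its level was 15.5 ± 4.11 and 25.2 ± 0.779 CPM, a log2 fold change of 0.70 ± 0.21 (SE, edgeR adjusted p = 0.519). It had an unadjusted p under 0.05 in 14 of 14 settings, with a log2 fold change of 0.51 without OGT-sufficient replicate 3. *Mcu*, the pore subunit of the uniporter, was at 23.6 ± 4.39 and 21.3 ± 3.92 CPM (log2 fold change -0.15 ± 0.20 SE, edgeR adjusted p = 0.902). It was singled out after its values were seen. None of the 5 other pumps and exchangers tested had an unadjusted p under 0.05 in edgeR's quasi-likelihood test, and their log2 fold changes lay between -0.25 and 0.25.

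**Figure D4:**
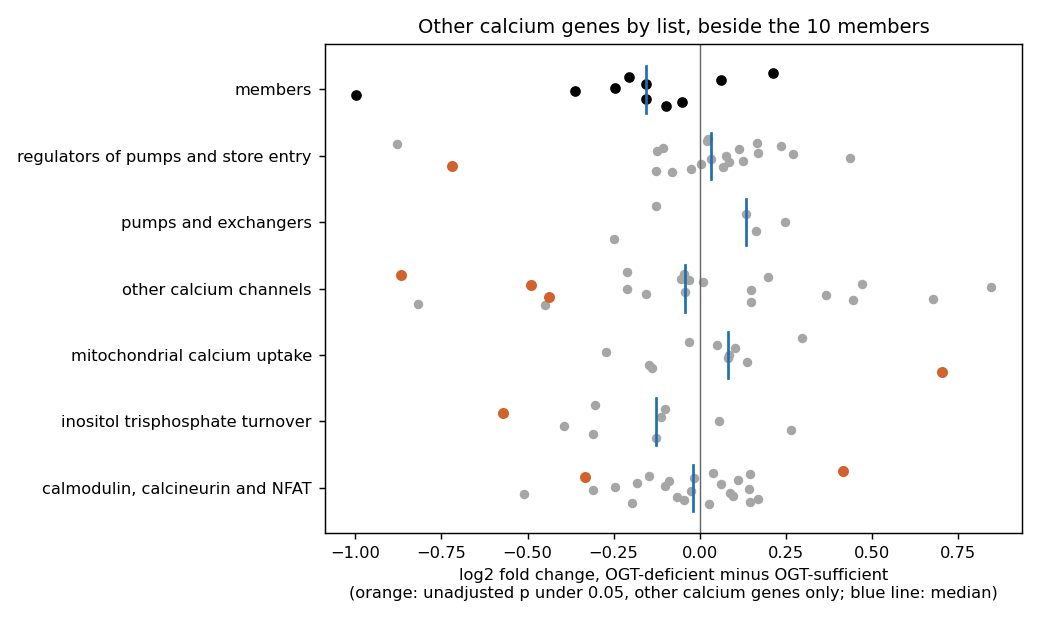
Log2 fold changes, OGT-deficient minus OGT-sufficient (x axis), of the 91 other calcium genes tested by list (y axis) and of the 10 described genes (top, black). Orange points have an unadjusted p under 0.05 and blue lines are list medians. Most points lie near 0, and 6 orange points lie below it and 2 above it.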

How the data were processed

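RNA of YFP-sorted Treg cells was sequenced in 3 OGT-sufficient and 3 OGT-deficient samples, grouped by their titles. The authors trimmed the reads with Trimmomatic 0.33 and mapped them with Bowtie2 2.2.4.0, and the submitters' processing notes give the build as mm10. The paper names Cuffquant for quantification and those notes name featureCounts. The deposited values are counts of reads per gene symbol, whole numbers without normalization. The annotation, the strand setting and the handling of shared reads are not given in the sources used here. The same table holds the authors' group means, fold changes and p-values, which were not used.

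The counts were tested with edgeR 4.0.16 (R 4.3.3) by its quasi-likelihood test after filterByExpr (minimum count 10) and TMM scaling, and p-values were adjusted by the Benjamini-Hochberg method across all 10949 genes. The SE of a log2 fold change is its absolute value divided by the root of the F statistic. CPM is relative to the TMM-scaled library of the genes tested. RPKM divides CPM by the union of exons in GENCODE M21, matched by symbol or RefSeq synonym for 24069 of 24420 symbols. Promoter windows came from the RefSeq table (GRCm38.p6) for 8 of 10 genes.

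The members and lists were chosen with earlier results of these data known. Named by rule are the 10 members, *Ogt*, *Foxp3* and other calcium genes at an unadjusted p under 0.05 (at most 12). Outside that rule, *Mcu*, *Rn45s*, some cell markers such as *Irf4*, and genes that overlap a named gene are also named. Of 112 listed, *Mcub*, *Stimate* and *Irag2* were matched by an older symbol. Alternatives were DESeq2 1.42.0, edgeR's exact test, other scalings and filters, a loess correction for length and GC content, a replicate block, each sample left out, and the longest transcript as length. The code was tested on simulated data. A floor of 3 counts is 0.759 to 0.808 CPM and covers counting error only. Replicates differed by more than sampling noise, with chi-square divided by its degrees of freedom at 3.31 to 22.0 for replicate pairs.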

Additional observations from a re-analysis of the deposited data

How the results depend on the processing

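The log2 fold change of *Atp2b4* was negative and that of *Stim2* positive in all 14 settings, while the sign changed for *Atp2a3* in 4, *Orai2* in 2 and *Orai1* in 1. Over all genes, 3 passed an FDR of 0.1 in edgeR's quasi-likelihood test, 38 in DESeq2, 80 in edgeR's exact test, 131 with no filter and 1 with the length and GC correction. At an unadjusted p under 0.05 there were 777 genes, 452 in DESeq2 and 1208 with no filter. Other calcium genes at that p numbered 8, and 4 in DESeq2. With each sample left out in turn, the counts were 0 to 9 at the FDR (9 without OGT-sufficient replicate 3, and 0 without OGT-deficient replicate 2 or 3), 462 to 888 at the unadjusted p (462 without OGT-deficient replicate 2) and 4 to 10 for other calcium genes (4 without OGT-deficient replicate 2 and 5 without OGT-deficient replicate 3). Of the 10 described genes, 2 had groups without overlap, and 2 to 5 with a sample left out (5 without OGT-deficient replicate 1). With library size only, 2 were lower and 0 higher. The causes were not tested.

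Samples with the same replicate number did not deviate together (correlations -0.28, 0.0071 and -0.118). These values come from deviations from means of 3 samples and cannot show whether samples were handled in pairs. With the replicate block, 0 genes passed the FDR and 679 the unadjusted p, 6 of them other calcium genes, and *Atp2b4* was at -1.02. With 57 to 121 counts, *Orai1* had the lowest depth of the 10 genes.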
